A study of Mus musculus with 2 samples.

Results

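A set of 10 genes with roles in adhesion, the cytoskeleton and growth control was followed in macrophages of mouse pancreatic islets: Npnt, Fat3, Tspan7, Lrrc3, Dlc1, St5, Frmpd4, Ppp1r9a, Wwtr1 and Igf2bp3. They are 10 of the 32285 genes measured, and they were chosen by an earlier comparison of the same cells because each was higher in macrophages with little surface CD9. The CD9 difference is therefore a description of the choice and not a finding. By what the proteins are known to do, not all of the 10 have a settled place in adhesion or the cytoskeleton. Lrrc3 and Igf2bp3 have none, and Wwtr1 encodes a coactivator of the Hippo pathway.

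The cells came from islets of 6 to 8 wild-type C57BL/6J males, pooled, dissociated and sorted as live Epcam-negative CD45+ cells. They were stained with oligonucleotide-tagged antibodies against CD9 and CD206 and read as 2 libraries, mRNA and antibody-derived tags. There was 1 sample of cells and no replicate, so no test across samples was possible, and every interval below covers counting error only. Levels are unique molecular identifiers (UMIs, single captured molecules) of a gene scaled to 1000000 RNA UMIs summed over a group of cells (CPM).

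Macrophages were the 1708 barcodes with at least 5000 RNA UMIs and at least 2000 CPM of C1qa, C1qb and C1qc together. The other 302 barcodes above 5000 RNA UMIs are called other cells, and 227 barcodes lay under that minimum. The median RNA depth was 20924 UMIs per macrophage and 14189 per other cell. The label was checked on 12 macrophage markers, of which the 3 C1q genes are part of the rule. The other 9 were all detected in both CD9-low and CD9-high macrophages, with Csf1r in 98.8% and 98.1% of cells and Adgre1 in 96.8% and 97.4%. Mertk was in only 9.82% and 17.7%. Of the 12 markers, 2 were at least 1.5-fold lower in CD9-low macrophages. They were Trem2, at 94.6 and 169 CPM, and Lyz2, at 1008 and 1868 CPM. The antibody tags that define the 2 surface readouts were read as these sequences, with the whole tag in capitals.
CD9 tag: TAGCAGTCACTCCTA
CD206 tag: TCAACTCGGTGTTGC

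As background, resident macrophages hold on to matrix and to neighbouring cells through integrins and cadherin-like proteins, which are linked to the actin cytoskeleton inside the cell. The Hippo pathway reads cell contact and tension and controls the coactivators YAP and TAZ, which act through TEAD factors. Tetraspanins such as CD9 organise integrins and other partners in the membrane.

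For the CD9 comparison, CD9 tag counts were ranked among macrophages of like RNA depth, and the lowest tercile (CD9-low, 570 cells) was set against the highest (CD9-high, 570 cells), with 568 cells between them (CD9-mid). The median CD9 count was 55 UMIs in CD9-low and 3183 UMIs in CD9-high macrophages, at median RNA depths of 20937.5 and 20924 UMIs, and Cd9 mRNA was at 56.1 and 386 CPM. All 10 members were at least 1.5-fold higher in CD9-low macrophages, while 2.71% of 9161 genes with at least 100 UMIs were, a contrast that chose the members. Other markers moved with CD9 as well, among them the macrophage markers Trem2 and Lyz2, given above. Dendritic cell markers summed to 39.1 CPM in CD9-low and 74.6 CPM in CD9-high macrophages, with 4 of 5 tested lower, against 5.64% of all genes. Monocyte markers summed to 20.3 and 47.3 CPM, mostly from Ccr2 (159 and 480 UMIs), the only one with enough UMIs to be tested. F13a1 (26 and 10 UMIs) and Ly6c2 (13 and 5 UMIs) ran the other way. Of 16 immediate-early and heat-shock genes, which summed to 12022 and 9767 CPM, Atf3 was higher (ratio 1.70) and Ier3 lower (0.527). The part of these in the members' levels was not tested. The choice had no single threshold. In order of the lower bound of the ratio, Lrrc3 (5.17) was followed by Ptprm (4.44) and Kitl (4.03), which are no members, while Colec12 (18.5) and Racgap1 (8.28) ranked among the members and Tspan7 (3.86) came after the first 20 genes.

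Among genes of the cell surface and matrix, Npnt encodes nephronectin, a matrix ligand of integrin alpha 8 beta 1. Npnt was at 75.6 CPM in CD9-low, 10.1 CPM in CD9-mid and 5.53 CPM in CD9-high macrophages, and 156 CD9-low against 23 CD9-high cells held a UMI. The CD9-low over CD9-high ratio was 13.7 (95% interval 10.7 to 17.6). Fat3 encodes a giant atypical cadherin. Fat3 was at 93.2, 40.9 and 11.8 CPM over the same terciles, with a UMI in 278 CD9-low and 57 CD9-high cells and a ratio of 7.88 (6.65 to 9.38). It was the member found in most cells.

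Tspan7 encodes a tetraspanin, as Cd9 does. Tspan7 was at 13.4 CPM in CD9-low, 3.95 CPM in CD9-mid and 3.46 CPM in CD9-high macrophages, a ratio of 3.86 (2.76 to 5.50). One CD9-high macrophage held 17 of the 45 Tspan7 UMIs of its tercile, and the ratio was 6.20 without that cell. Lrrc3 encodes a leucine-rich-repeat membrane protein. Lrrc3 was at 18.7, 9.37 and 3.61 CPM over the terciles, a ratio of 5.17 (3.76 to 7.24), and no macrophage held more than 7 of its UMIs.

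Among regulators of small GTPases, Dlc1 encodes a GTPase-activating protein of focal adhesions. Dlc1 was at 27.0 CPM in CD9-low, 13.1 CPM in CD9-mid and 1.54 CPM in CD9-high macrophages, a ratio of 17.6 (11.2 to 29.2). A single macrophage in the middle tercile held 82 of the 509 Dlc1 UMIs of all macrophages. That barcode had 41780 RNA UMIs, 6175 CPM of C1q, 50 UMIs of fibroblast and pericyte markers and 4 of endothelial markers, and it fell in an endothelial-like cluster. With it, CD9 decile 5 stood at 34.2 CPM, and without it at 11.5 CPM. St5 (Denn2b in RefSeq) encodes a DENN-domain activator of Rab13. St5 was at 62.3, 15.7 and 6.69 CPM, a ratio of 9.31 (7.45 to 11.8), with a UMI in 229 CD9-low and 41 CD9-high cells.

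Among cytoskeletal scaffolds, Frmpd4 encodes a FERM and PDZ domain protein best known from synapses. Frmpd4 had the largest ratio of the 10, with 89.7 CPM in CD9-low, 24.4 CPM in CD9-mid and 3.23 CPM in CD9-high macrophages (ratio 27.8, 20.4 to 38.8). Its 1095 CD9-low UMIs lay in 188 cells, and its 42 CD9-high UMIs lay in 12 cells. Ppp1r9a encodes neurabin, an actin-binding protein that brings protein phosphatase 1 to the cytoskeleton. Ppp1r9a was at 11.3, 2.55 and 1.77 CPM over the terciles, a ratio of 6.40 (4.09 to 10.4).

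Of the 2 remaining genes, Wwtr1 encodes TAZ, the Hippo pathway coactivator. Wwtr1 was the least counted member in macrophages, at 7.87 CPM (96 UMIs) in CD9-low, 1.81 CPM in CD9-mid and 0.999 CPM (13 UMIs) in CD9-high cells, a ratio of 7.87 (4.39 to 15.3). Igf2bp3 encodes an RNA-binding protein known from fetal tissue. Igf2bp3 was at 30.4, 10.7 and 4.38 CPM, a ratio of 6.94 (5.24 to 9.34), in 176 CD9-low and 46 CD9-high cells.

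Promoter windows running from 250 bases before to 50 after the start were at hand from RefSeq (GRCm38.p6) for 9 of the 10 members, 14 windows in all. They were searched on both strands for 6 short motifs. The TEAD motif, written GGAATG, was in 4 of the 14 windows, those of St5, Tspan7 and 2 overlapping ones of Wwtr1, and in 14.7% of 32851 windows of all genes. The other motifs were in 0 of the 14. Their shares of all windows were 3.20% for the PU.1 core GAGGAAGT and 7.81% for AP-1, read as TGANTCA. They were 21.0% for the SMAD letters CAGACA, 4.67% for MAF as TGCTGAC and 13.6% for the TATA box TATAAA. A match is a description of letters and not a site. The 250 upstream bases of those 3 genes are shown because TAZ, the product of Wwtr1, works with TEAD factors. Capitals mark the TEAD motif, which is reverse-complemented in Tspan7.
St5, chr7:109616569-109616818, minus strand: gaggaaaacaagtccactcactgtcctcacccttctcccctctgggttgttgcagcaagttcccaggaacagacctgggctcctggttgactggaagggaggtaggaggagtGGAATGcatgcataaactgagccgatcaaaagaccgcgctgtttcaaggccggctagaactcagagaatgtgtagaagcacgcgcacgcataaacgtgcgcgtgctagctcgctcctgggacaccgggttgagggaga
Wwtr1, chr3:57575911-57576160, minus strand: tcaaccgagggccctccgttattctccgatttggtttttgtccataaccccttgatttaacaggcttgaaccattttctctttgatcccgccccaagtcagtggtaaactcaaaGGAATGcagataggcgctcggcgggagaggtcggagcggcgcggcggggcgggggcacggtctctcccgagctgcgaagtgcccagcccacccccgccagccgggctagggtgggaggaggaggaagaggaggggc
Tspan7, chrX:10484866-10485115, plus strand: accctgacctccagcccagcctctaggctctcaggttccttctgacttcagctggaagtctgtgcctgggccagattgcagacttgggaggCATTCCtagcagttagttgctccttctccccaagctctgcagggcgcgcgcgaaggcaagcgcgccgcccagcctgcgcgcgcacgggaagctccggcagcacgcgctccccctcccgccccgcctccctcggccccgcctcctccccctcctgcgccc

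**Figure D1:**
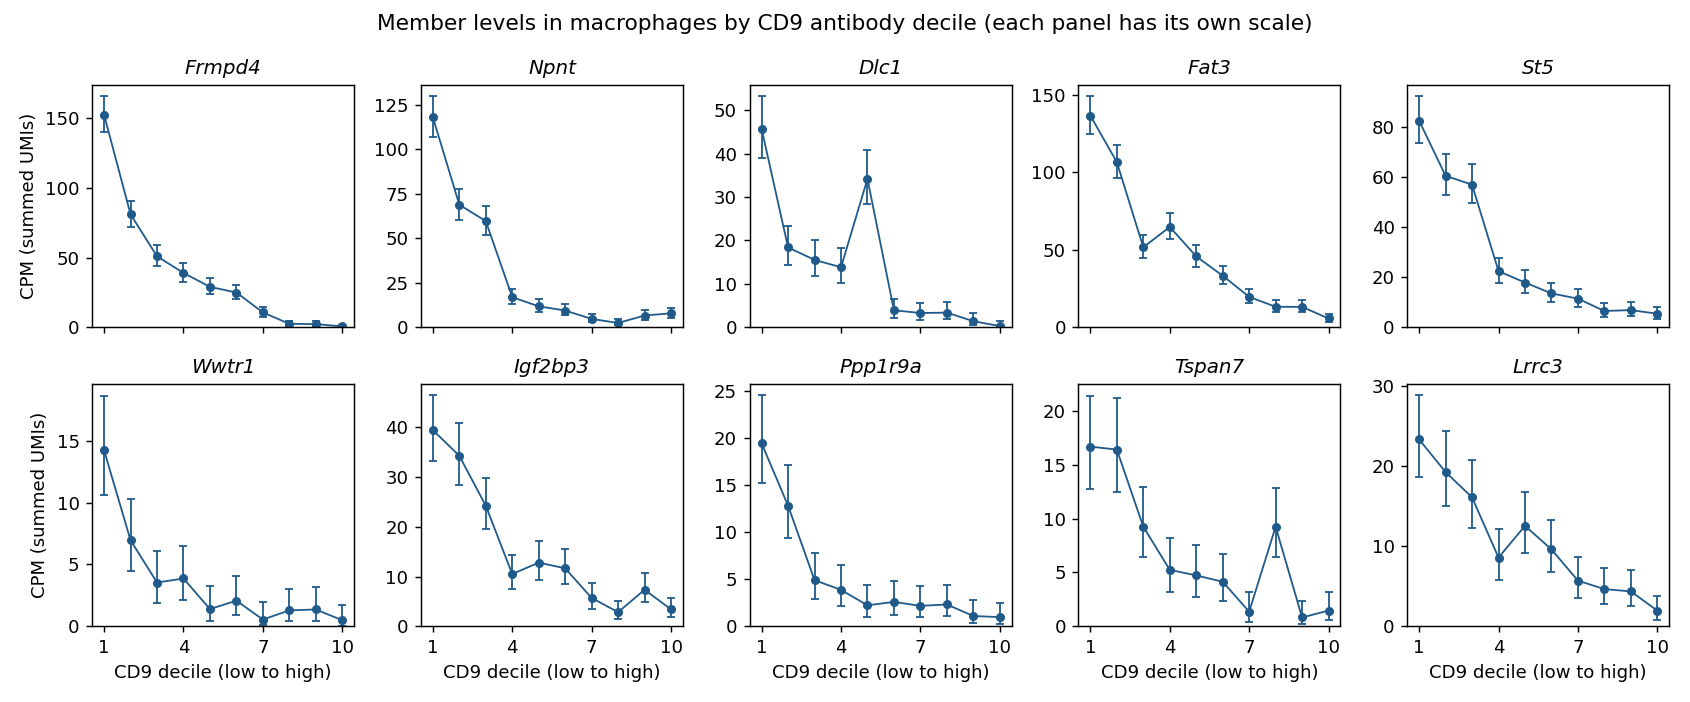
Level of each member (CPM from summed UMIs, with exact Poisson 95% bars) over 10 deciles of CD9 antibody in macrophages, low to high. Frmpd4 runs from 152.6 CPM in the lowest decile to 0.486 CPM in the highest, and the high points of Dlc1 in decile 5 and Tspan7 in decile 8 each hold 1 cell with many UMIs.

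The fall with CD9 was graded and began inside the lowest tercile. Frmpd4 had 152.6, 81.1 and 50.9 CPM in deciles 1, 2 and 3 of CD9, and Npnt had 118.1, 68.8 and 59.6 CPM. Ppp1r9a had 19.4, 12.8 and 4.90 CPM, and Wwtr1 14.2, 6.96 and 3.54 CPM. Median CD9 antibody counts in these deciles were 27, 51.5 and 105.5 UMIs, and 6086 UMIs in decile 10. Over the 1708 macrophages the number of members with a UMI, counted after every cell was thinned to 5000 RNA UMIs, had a Pearson correlation of -0.51 with log2 CD9 antibody UMIs. With the cell's RNA total it was -0.12. Both are given as descriptions over cells of 1 library pair.

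CD206, the mannose receptor encoded by Mrc1, is the other antibody readout. It was not independent of CD9, since the Pearson correlation of the log2 antibody counts was 0.45 over 1708 macrophages. CD206 counts were also low, with a median of 3 UMIs in the lowest tercile (CD206-low, 570 cells) and 29 in the highest (CD206-high, 570 cells). Of the 9 members with at least 100 UMIs in the 2 terciles, 9 were at least 1.5-fold higher in CD206-low macrophages, against 1.76% of 9207 genes, and 0 were lower by as much, against 2.43%. The median log2 ratio of the 9 was 1.38, beside 0.01 for all genes tested.

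Frmpd4 was at 71.1 CPM in CD206-low and 15.9 CPM in CD206-high macrophages (ratio 4.46, 3.82 to 5.22). Fat3 was at 74.7 and 17.4 CPM (4.30, 3.71 to 5.00), Npnt at 50.6 and 13.4 CPM (3.77, 3.18 to 4.49) and St5 at 45.7 and 12.3 CPM (3.71, 3.10 to 4.46). These 4 had the largest CD206 ratios of the 10. The others with enough UMIs lay between 2.61 for Dlc1 (1.75 without its richest cell) and 1.79 for Igf2bp3, and Wwtr1, with 61 and 28 UMIs, had a ratio of 2.27 (1.43 to 3.68). For comparison, Mrc1 mRNA itself was at 5.31 CPM in CD206-low and 65.3 CPM in CD206-high cells. Endocrine markers moved with the members, at 3682 CPM in CD206-low and 2309 CPM in CD206-high macrophages, with 6 of 10 at least 1.5-fold higher. The sum of monocyte markers ran the other way, at 23.2 and 54.5 CPM, with 1 of 6 holding enough UMIs to be tested. The part of both kinds of marker RNA in the members' levels was not tested.

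**Figure D2:**
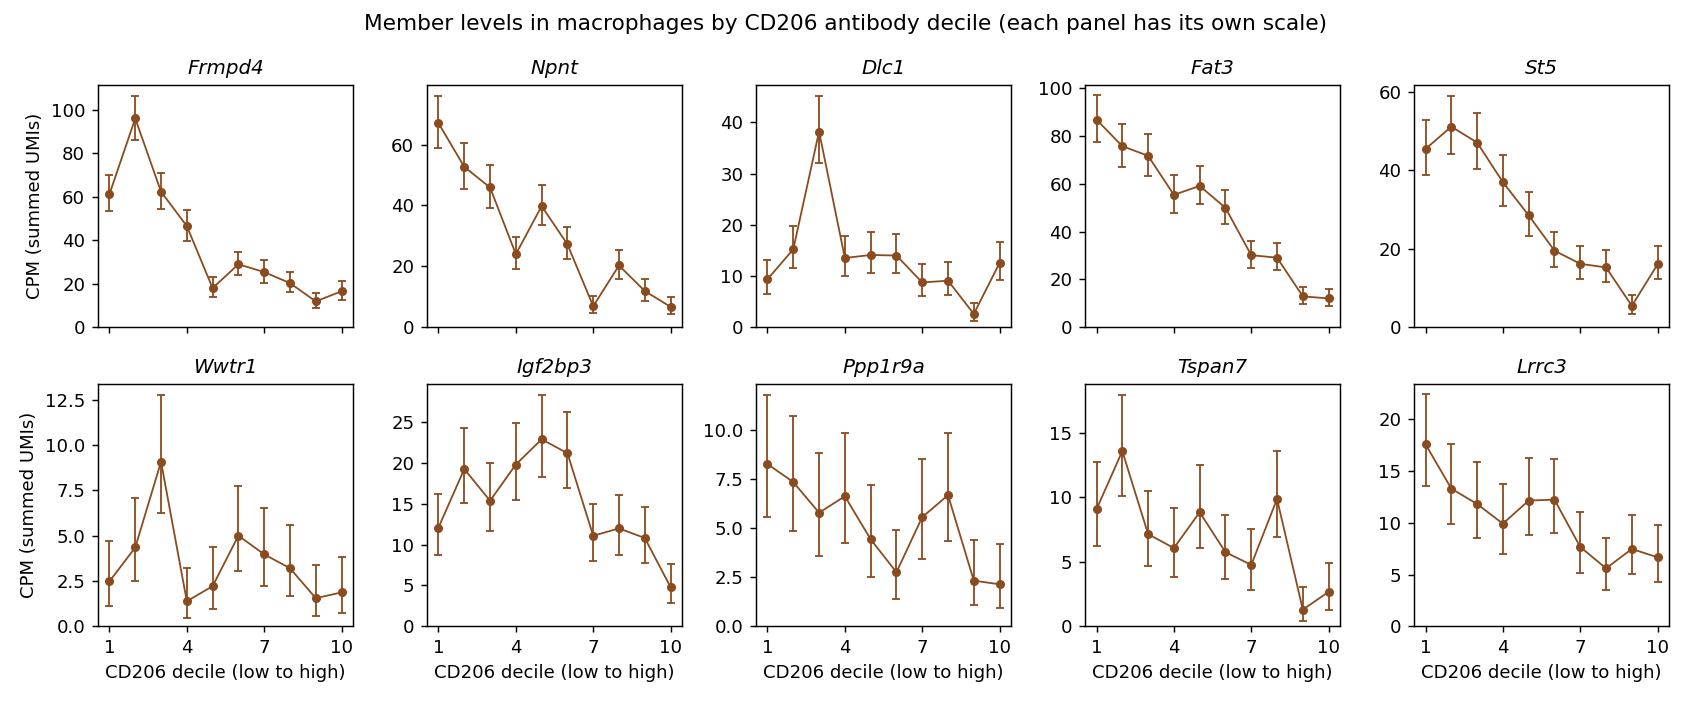
Level of each member (CPM, exact Poisson 95% bars) over 10 deciles of CD206 antibody in macrophages, low to high. Fat3 falls over the deciles, with 86.9 CPM in the lowest, whereas Igf2bp3 is highest, at 22.9 CPM, in decile 5.

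The order over CD206 was less regular than over CD9. Igf2bp3 had 12.1 CPM in CD206 decile 1, 22.9 CPM in decile 5 and 4.80 CPM in decile 10. Frmpd4 peaked in decile 2 at 96.1 CPM, and Dlc1 in decile 3, which holds its richest cell, at 38.2 CPM. In contrast, Fat3 and Lrrc3 were highest in decile 1, at 86.9 and 17.6 CPM.

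Within CD9-low macrophages, cells in the lower 50% of CD206 were set against those in the upper 50%, with median CD9 counts of 45 and 67 UMIs. The members did not move together there. Frmpd4 was at 115.1 and 65.1 CPM (ratio 1.77, lower bound 1.56), Npnt at 93.5 and 58.4 CPM (1.60, 1.40 to 1.83) and Ppp1r9a at 13.7 and 9.03 CPM (1.51, 1.06 to 2.16). Thus 3 of 9 members with enough UMIs were at least 1.5-fold higher in the lower CD206 cells, against 1.69% of 7473 genes, and St5 lay just under that fold, at 74.97 and 49.98 CPM. Without the cell richest in each gene, Ppp1r9a was under the fold (1.39) and St5 past it (1.58). Dlc1 ran the other way, with 19.7 CPM in the lower and 34.2 CPM in the upper CD206 cells (ratio 0.575, 0.455 to 0.724), as did Igf2bp3, with 25.5 and 35.2 CPM (0.725, 0.586 to 0.896). The Fat3 ratio was 1.32 (1.17 to 1.49), and the intervals of Wwtr1, Tspan7 and Lrrc3 included a ratio of 1. Endocrine markers summed to 4046 CPM in the lower and 3145 CPM in the upper CD206 cells. Of 7 tested, 4 were at least 1.5-fold higher and 1 was lower by as much, and their part was not tested.

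The members were then compared between macrophages and other cells. This contrast did not choose them, but it was not independent of the choice. Members were chosen among macrophages, and all had enough UMIs there to be tested. The 11129 background genes include some counted mainly in other cells, such as Itga2 with 2 macrophage and 123 other-cell UMIs. Their shares are therefore no like-for-like reference for the members. Of the 10, 5 were at least 1.5-fold higher in macrophages, where 15.5% of 11129 genes were, and 4 were lower by as much, where 38.2% of genes were. Lrrc3 was at 10.4 CPM in macrophages and 0.634 CPM (4 UMIs) in other cells, a ratio of 16.4 (6.36 to 60.5). Fat3 was at 47.9 and 6.82 CPM (7.02, 5.19 to 9.74), Igf2bp3 at 14.9 and 4.597 CPM (3.25, 2.24 to 4.89), Frmpd4 at 38.4 and 12.05 CPM (3.18, 2.53 to 4.07) and Npnt at 29.9 and 19.02 CPM (1.57, 1.30 to 1.91). These 5 include surface, scaffold and RNA-binding genes.

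Lower in macrophages were Tspan7 (6.85 CPM, against 62.8 CPM in other cells, ratio 0.109), Wwtr1 (3.50 and 27.3 CPM, 0.129), Ppp1r9a (5.14 and 15.2 CPM, 0.338) and Dlc1 (13.6 and 31.4 CPM, 0.434). St5 differed little, at 27.8 and 25.5 CPM (ratio 1.09, 0.921 to 1.29). The other cells were of several kinds, and the 4 genes that were lower had their counts in few of them. Without endothelial-like and endocrine-like cells, a choice made after seeing the data, 8 of the 10 members were at least 1.5-fold higher in macrophages, where 14.6% of 10450 genes were. The others were Npnt, at 1.498, and Wwtr1, at 1.23 (0.665 to 2.52). The 10450 background genes were not limited to those counted in macrophages either.

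Clusters were made without the members and named from marker genes. Dlc1 was at 13.6 CPM in macrophages and 508 CPM in 16 endothelial-like cells, and Wwtr1 at 3.50 and 484 CPM, with a UMI of each gene in all 16 of those cells. Tspan7 was at 6.85 CPM in macrophages and 180 CPM in 44 endocrine-like cells, 42 of which held a UMI. St5 and Ppp1r9a were also present there, at 63.2 and 40.6 CPM. Npnt was at 29.9 CPM in macrophages, 41.1 CPM in 82 T cell-like cells (36 UMIs in 8 cells) and 53.1 CPM in 27 NK cell-like cells (15 UMIs in 2 cells).

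Fat3 and Lrrc3 had few UMIs in the named classes. Fat3 had 3 in T cell-like, 1 in NK cell-like and 1 in endocrine-like cells, and Lrrc3 had 1, in a B cell-like cell. Of the 43 Fat3 UMIs of other cells, 38 lay in 37 cells of no named class, at 62.7 CPM, whose median C1q was 1367 CPM. Another 17 cells, in a cluster with both dendritic and cycling markers, were kept apart and held 0 Fat3 UMIs. In 38 dendritic cell-like cells, whose median depth was 22615.5 RNA UMIs, 9 of the 10 members had 0 UMIs and Igf2bp3 had 6. A count of 0 of 38 cells allows a share of up to 7.89% (3 of 38). By comparison, Frmpd4 had a UMI in 33.0% of CD9-low macrophages at a median depth of 20937.5. The dendritic cell-like cells had a median CD9 count of 849.5 UMIs, however. In macrophages of CD9 deciles 5 and 6, with medians of 577 and 936.5 UMIs, Frmpd4 was in 10% and 5.62% of cells. The limit of 7.89% lies between these shares. In 16 monocyte-like cells all 10 members had 0 UMIs, which allows up to 12.1 CPM of each (3 UMIs).

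**Figure D3:**
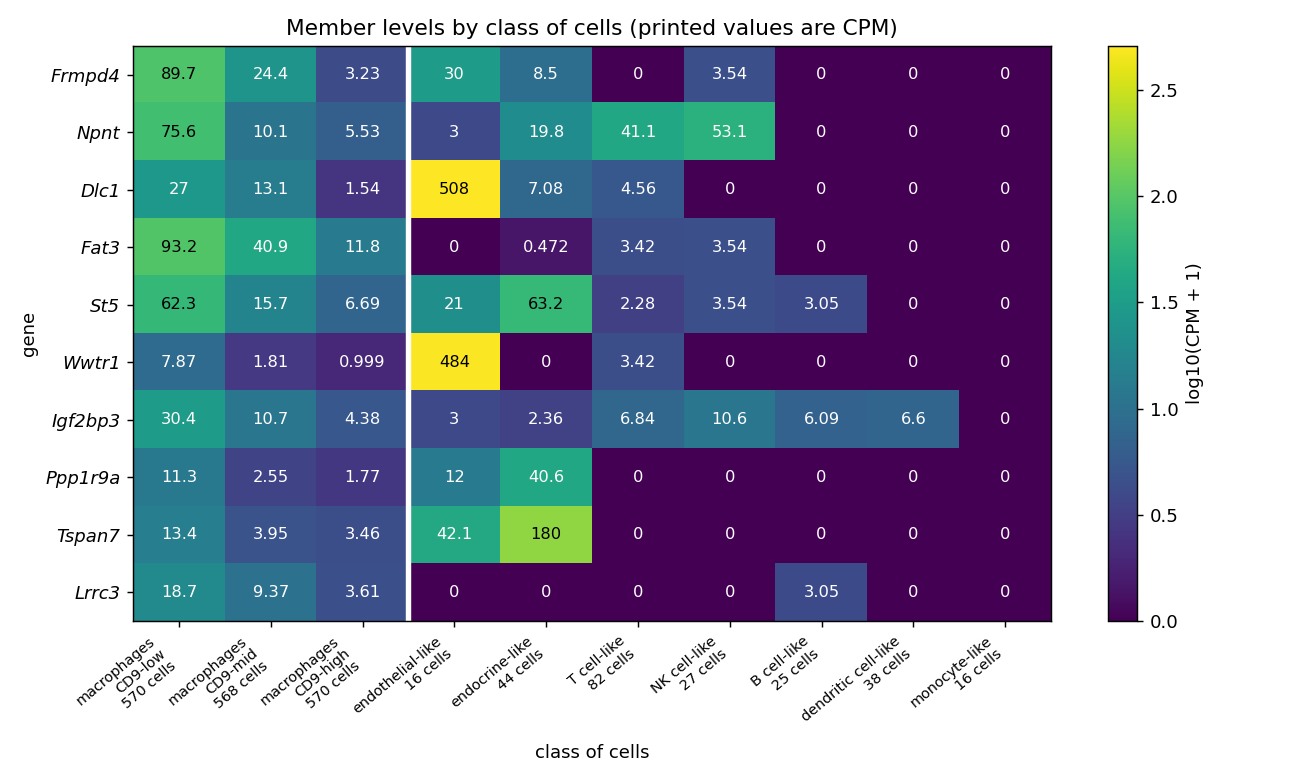
Level of each member (rows) in CPM, printed in each field and coloured on a log10 scale, in macrophages by CD9 tercile (left of the white line) and in 7 classes of other cells. Dlc1 and Wwtr1 are brightest in endothelial-like cells, at 508 and 484 CPM, and Tspan7 in endocrine-like cells, at 180 CPM.

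Since some members were also found in endothelial-like or endocrine-like cells, their counts in macrophages were set against the marker RNA of those cells. CD9-low macrophages held 2215 Dlc1 UMIs for every 1000 endothelial-marker UMIs, and endothelial-like cells held 46.3. For Wwtr1 the values were 644 in CD9-low macrophages and 44.1 in endothelial-like cells. In CD9-high macrophages the same values were 67.1 for Dlc1 and 43.6 for Wwtr1, near those of endothelial-like cells. Endothelial markers summed to 12.2 CPM in CD9-low and 22.9 CPM in CD9-high macrophages, the opposite order to the members. The part of that RNA in the members' levels was not tested.

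For Tspan7, CD9-low macrophages held 3.72 UMIs per 1000 endocrine-marker UMIs, against 0.444 in endocrine-like cells. For St5 the values were 17.4 and 0.156, and for Ppp1r9a 3.15 and 0.100. The sum of endocrine markers moved with the members, however, at 3588 CPM in CD9-low and 2427 CPM in CD9-high macrophages. Of the 10 markers, 4 were at least 1.5-fold higher in CD9-low cells and 1 was lower by as much. The lower one was Sst, at 3.69 and 26.1 CPM (ratio 0.142). Macrophages with a Tspan7 UMI held 6184 CPM of endocrine markers, against 2583 CPM in those without. Without the 10% of macrophages richest in hormone and acinar RNA, the CD9-low over CD9-high ratio was 4.97 for Tspan7 and 8.04 for Ppp1r9a. The part of endocrine RNA in the members' levels was not tested.

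In macrophages the members were found together in the same cells. To keep depth equal, each cell was thinned to 5000 RNA UMIs, and the number of members with a UMI was counted. At least 2 members were found in 214 of 570 CD9-low macrophages (37.5%, exact 95% interval 33.6 to 41.7%), 53 of 568 CD9-mid (9.33%) and 9 of 570 CD9-high macrophages (1.58%, 0.724 to 2.98%). At least 3 were found in 116 CD9-low, 16 CD9-mid and 2 CD9-high macrophages. Among other cells, 39 of 302 (12.9%) held at least 2. By CD206 the share with at least 2 was 25.6% in CD206-low and 6.67% in CD206-high macrophages. Without thinning, at least 2 members were found in 64.7% of CD9-low and 9.82% of CD9-high cells.

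Co-detection of each of the 45 pairs was described by an odds ratio, the odds of holding one gene in cells that hold the other over the odds in cells that do not. Over all macrophages 44 of 45 pairs had an odds ratio above 1, with a median of 3.33 (range 0.885 to 10.51). Since all were chosen to fall with CD9, this is not independent of the choice. Within CD9-low macrophages 40 of 45 pairs were above 1, with a median of 1.93 (range 0.738 to 5.19). The members also fell with CD9 inside this tercile, so these values are not independent of the choice either. The pair with the highest value in both sets was Frmpd4 with Dlc1. In CD9-low cells 24.4% of those with Frmpd4 held Dlc1, against 5.82% of those without Frmpd4. Dlc1 with Wwtr1 (4.29) and Ppp1r9a with Tspan7 (3.95) came next, on 5 and 6 cells holding both. In other cells, which are of several kinds, 34 of 45 pairs were above 1, with a median of 3.03. The 0.5 added to each count of cells raises the ratio where a gene is in very few cells. Lrrc3, for example, had all 9 of its ratios there between 9.63 and 85.6. The median correlation of detection within a pair (phi) was -0.0005 in other cells and 0.093 in macrophages. Without thinning it was 0.12 and 0.17. Whether pairs found together were particular to macrophages was not tested.

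Levels were compared in the same way. The 123 CD9-low macrophages with Frmpd4 had 66.3 CPM of Dlc1, against 17.6 CPM in the 447 without (ratio 3.77, 3.02 to 4.71), and their St5 was at 131.0 CPM, against 45.7 CPM (2.86, 2.47 to 3.32). Of the 8 other members with at least 100 UMIs, 8 were at least 1.5-fold higher with Frmpd4, against 2.37% of 7473 genes, and Wwtr1, with 36 and 60 UMIs, had a ratio of 2.49 (1.60 to 3.83). CD9 counts of the cells with and without Frmpd4 were not matched. Frmpd4 gave the fullest count. Every other member, taken in the same way, left some members under that fold, as Dlc1 did for Tspan7 (1.33) and Fat3 for Lrrc3 (1.13). Lrrc3 had the lowest median odds ratio with its partners, 1.31. The 48 CD9-low macrophages with Lrrc3 had 5.37 CPM of Tspan7, against 14.0 CPM in the 522 without (ratio 0.383, 0.123 to 0.913), while their Dlc1 was at 54.8 and 24.7 CPM (2.21, 1.61 to 2.99) and their St5 ratio was 1.02 (0.768 to 1.33). Tspan7 with Lrrc3 was also the lowest of the 45 pairs, with 2 cells holding both.

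**Figure D4:**
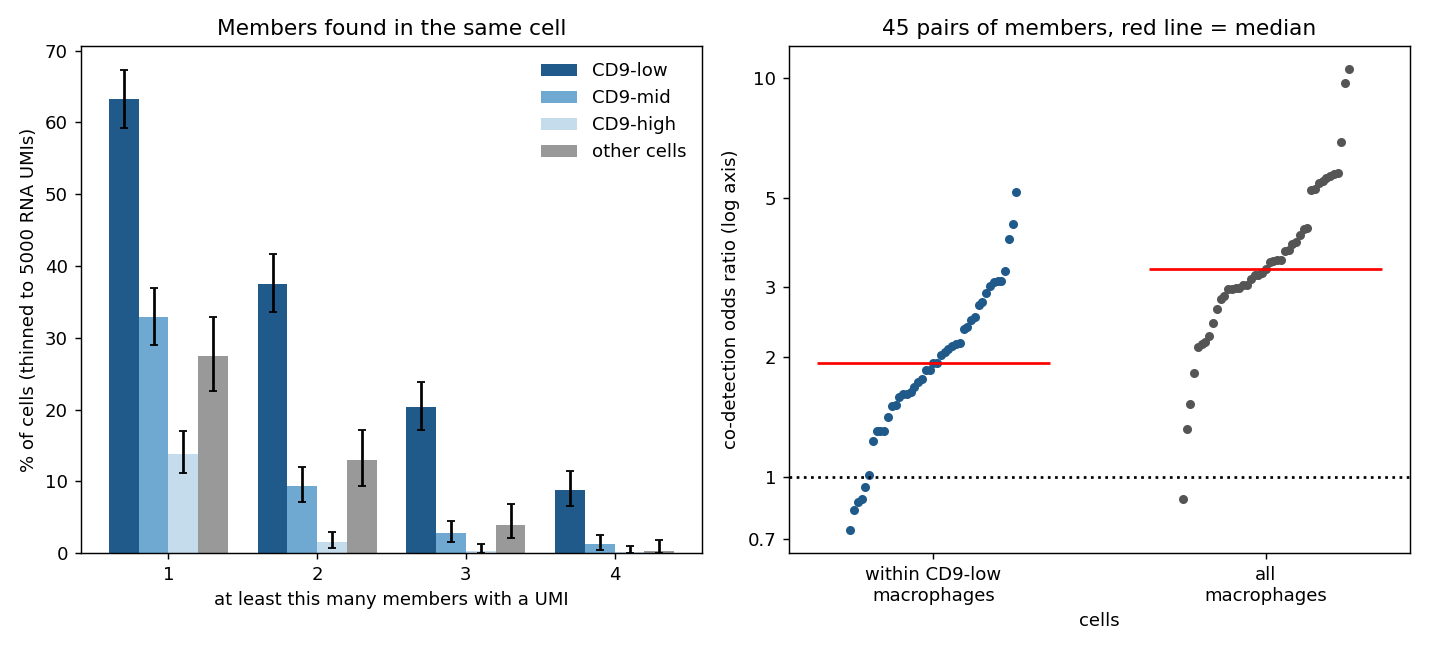
Left, share of cells (in %, bars with exact 95% intervals) holding at least 1, 2, 3 or 4 members after thinning to 5000 RNA UMIs, by CD9 tercile of macrophages and in other cells. Right, co-detection odds ratio of 45 pairs on a log axis, where the median is 1.93 within CD9-low macrophages and 3.33 over all macrophages.

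Macrophages holding 3 or more members were next compared with those holding none, both taken from CD9-low cells (116 and 209 cells). Their surface CD9 still differed, with medians of 35.5 and 99 UMIs, and Cd9 mRNA was at 12.1 and 104 CPM. Median RNA depth was 18986.5 and 22613 UMIs, and median C1q was 6701 and 6331 CPM. Against a background of 4.66% of 6204 genes higher and 4.87% lower by at least 1.5-fold, the adhesion and cytoskeleton genes listed beside the members had median log2 ratios near that of all genes.

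Stard13, a relative of Dlc1, was at 155.2 CPM in the cells with 3 or more members and 71.9 CPM in those with none (ratio 2.16, 1.85 to 2.51), the only one of 4 tested relatives of the members at least 1.5-fold higher. Of 25 integrin and focal adhesion genes, Vcl (vinculin) was higher (1.58) and Itgam, the CD11b integrin chain, lower (8.94 and 24.9 CPM, ratio 0.359). Of 29 actin genes, Actn1 (alpha-actinin) was higher (1.78), while the actin-binding genes Tmsb10 (49.6 and 307.5 CPM, 0.161) and Capg (6.71 and 32.6 CPM, 0.206) were lower. Of 11 Hippo pathway genes, Wwc2 was lower (0.530) and 0 were higher. Median log2 ratios of these 3 pathway lists lay between 0.01 and 0.20, beside 0.01 for all genes.

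Markers of other kinds of cell and state differed between the same 2 sets. The 6 monocyte markers summed to 4.02 CPM in cells with 3 or more members and 41.6 CPM in cells with none. Ccr2, at 1 and 133 UMIs, was the only one with enough UMIs to be tested. Ly6c2 held 0 and 13 UMIs, while Vcan was not lower, at 1.79 and 1.65 CPM (4 and 8 UMIs). The 6 cycling markers summed to 14.3 and 80.4 CPM. Of 15 listed receptors and regulators of resident macrophages, only Cx3cr1 and Mertk were past the 1.5-fold. Cx3cr1 was at 140.9 and 89.0 CPM (ratio 1.58, 1.36 to 1.83), whereas Mertk was at 5.37 and 19.2 CPM (0.280, 0.140 to 0.513). Mertk had 12 and 93 UMIs, and 1 cell held 25.7% of them. Of 16 immediate-early and heat-shock genes 3 were lower, among them Hspa1a at 636 and 1347 CPM, and of 12 NRF2 targets 2 were lower, Gclm (0.664) and Nqo1 (0.465). Endocrine markers were at 3607 and 2446 CPM, with 4 of 7 tested at least 1.5-fold higher, and endothelial markers at 12.1 and 10.3 CPM. The part of these in the comparison was not tested.

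Cells with 3 or more members were unevenly spread over macrophage clusters made without the members. They were 29 of 169 cells (17.2%, 11.8 to 23.7%) in the cluster led by Cxcl1, Cd207 and Mmp13, and 35 of 260 (13.5%, 9.56 to 18.2%) in the one led by Slc40a1, Pparg and Cd36. These 2 clusters also had the lowest median CD9 counts of the 10, at 184 and 200 UMIs. A cluster of 31 macrophages held 5 (16.1%, 5.45 to 33.7%). In the interferon-response cluster led by Ifit3 they were 31 of 329 (9.42%, 6.49 to 13.1%).

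At the other end, 0 of 76 cells had 3 or more members in the cluster led by Gpnmb, Pltp and Spp1, which allows a share of up to 3.95% (3 of 76), and the cluster had a median CD9 count of 3385.5 UMIs. The cluster led by Clec4e and Tnfsf9, with 2470 CD9 UMIs, held 3 in 98 cells (3.06%). A cluster of 51 cells with a median of only 5970 RNA UMIs held 0, although its median CD9 was 218 UMIs.

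**Figure D5:**
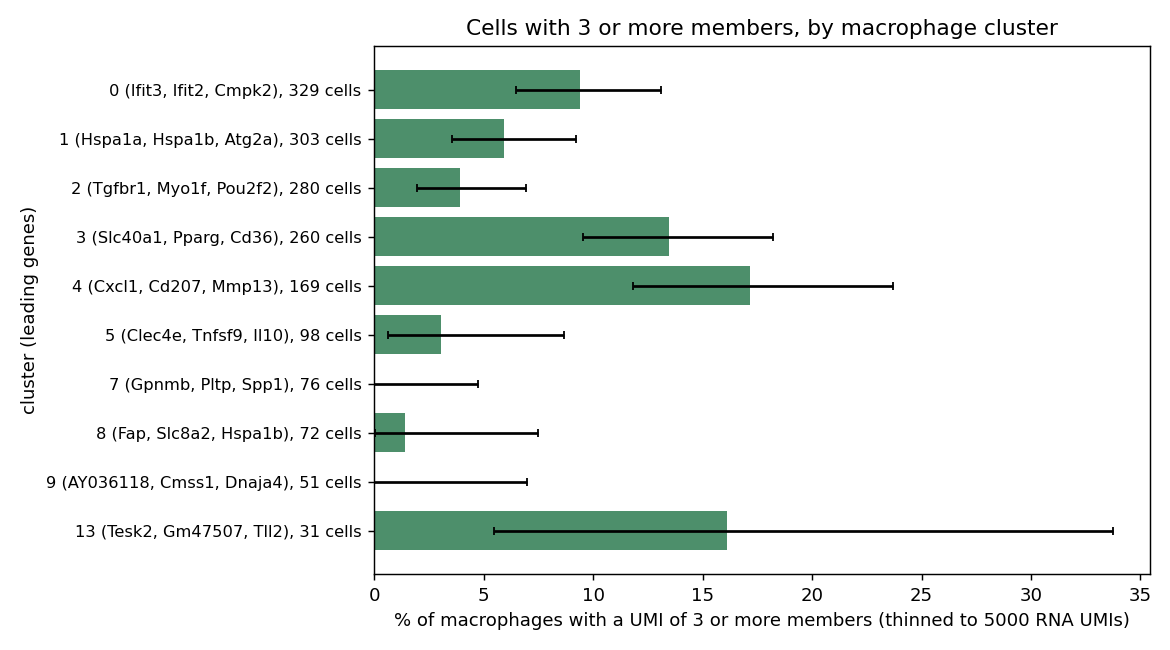
Share of macrophages (in %, bars with exact 95% intervals) with a UMI of 3 or more members after thinning to 5000 RNA UMIs, by cluster, named by number and 3 leading genes. The share is 17.2% in cluster 4 and 0% in clusters 7 and 9.

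Outside the 10 members, genes were ranked by their Pearson correlation over 1708 macrophages with the number of members per thinned cell. The highest of 9626 genes was the X-linked Xlr (r = 0.35), followed by 2510009E07Rik (0.33), Zmynd15 (0.31), A4galt (0.31), the glycosphingolipid enzyme of globotriaosylceramide, and Cd36 (0.31), the fatty-acid scavenger receptor. Within CD9-low cells Xlr (0.31) again came first and A4galt (0.30) was second, and 6 genes were in the top 10 of both rankings. The lowest were Cd9 (-0.41), Tmsb10 (-0.37), Tpt1 (-0.31), Fyn (-0.31) and Alcam (-0.30). For scale, the 5th and 95th percentiles over all genes were -0.08 and 0.08. The members were chosen to fall with CD9, so neither ranking is independent of that choice, which includes the place of Cd9 as lowest. A4galt, Xlr and Cd36 themselves ranked 14, 16 and 20 by the lower bound of the CD9-low over CD9-high ratio.

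These genes were picked for their correlation with the number of members, which fixes the direction of the following ratios. A4galt was at 40.2 CPM in CD9-low cells with 3 or more members and 5.56 CPM in those with none (ratio 7.23, 4.66 to 11.6). Xlr was at 87.6 and 26.6 CPM (3.30, 2.63 to 4.15). Alcam, an adhesion molecule of the immunoglobulin family, was at 449 and 1217 CPM (0.369, 0.345 to 0.395).

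Most members are long genes, a property that their choice did not use. Their spans in RefSeq (GRCm38.p6) had a median of 155 kb, against 25.7 kb over 8832 tested genes with a span, and 9 of the 10 were above that median. Of the tested genes, 6.70% were longer than the members' median. Frmpd4 spanned 1106 kb on the X chromosome (chrX:167471306-168577241), Fat3 592 kb (chr9:15910189-16502681) and Dlc1 385 kb (chr8:36567739-36953184). Lrrc3 was the exception, at 4.96 kb (chr10:77897575-77902536).

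Relatives of the members and genes of 3 pathway lists were set in the same CD9 comparison. Of 6 tested relatives, 3 were at least 1.5-fold higher in CD9-low macrophages and 0 were lower, with a median log2 ratio of 0.54. The 3 were Stard13 (110.6 CPM in CD9-low and 55.8 CPM in CD9-high cells), the RNA-binding Igf2bp2 (64.6 and 32.7 CPM) and Dennd2c (18.8 and 11.4 CPM). Of 27 integrin and focal adhesion genes, Itgb8 was higher (321.6 and 156.5 CPM) and Itgam, Itgb7 and Itga4 were lower. Of 12 Hippo pathway genes 0 were higher and Wwc2 was lower, and of 29 actin genes 0 were higher while Capg and Tmsb10 were lower. Over all genes tested 2.71% were higher and 5.64% lower by at least 1.5-fold. The median log2 ratios of the 3 pathway lists lay between -0.09 and -0.02, beside -0.08 for all genes and 2.98 for the members.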

How the data were processed

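The authors deposited counts of unique molecular identifiers per gene or antibody tag and barcode, written by Cell Ranger 8.0.1 as recorded per the file headers. Reads had been aligned to mm10 (submitters' processing notes). How barcodes were kept is not stated in the labels or headers. The matrix held 32285 genes and 2237 barcodes. Counts were used as deposited, and 40 barcodes with the highest Scrublet scores (1.79%) were removed only in an alternative.

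The members, gene lists and comparisons were chosen with earlier results of these data known. Antibody UMIs were ranked within 10 deciles of RNA total, with ties broken by a seeded draw. A gene was counted as at least 1.5-fold higher or lower only where the 2 summed groups held 100 UMIs. Sums carry exact Poisson, shares Clopper-Pearson and ratios exact conditional binomial 95% intervals. Barcodes of 1 sample are not replicates, so no test was made and no p-value computed. Odds ratios had 0.5 added to each count of cells. Clusters (18) used 2000 variable genes without the members, 30 principal components, 15 neighbours and Leiden at resolution 1, and were named from at least 3 markers. Named genes were the members, Cd9, Mrc1, the C1q genes, listed genes past the 1.5-fold (at most 4 per list and direction) and the genes of highest and lowest correlation. Genes beside the members in the CD9 order and cluster leading genes were named outside that rule, after their values were seen. So were the monocyte markers Ccr2, F13a1, Ly6c2 and Vcan, the macrophage markers Trem2 and Lyz2 and the endocrine marker Sst. Ratio and odds-ratio steps were tested on simulated data. One of the gene lists is not reported here. All 10 members matched RefSeq by symbol or synonym. Python 3.11.15, numpy 2.4.6, scipy 1.17.1, scanpy 1.11.5, leidenalg 0.10.2 and matplotlib 3.10.9 were used.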

Additional observations from a re-analysis of the deposited data

Results flagged for a closer look

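The 227 barcodes under 5000 RNA UMIs took part in no comparison, and in their 452321 UMIs 7 members exceeded the limit of 3 counts with their whole 95% interval. Levels there were 28.7 CPM for Frmpd4, 28.7 CPM for Npnt, 46.4 CPM for Dlc1, 64.1 CPM for Fat3, 17.7 CPM for St5, 22.1 CPM for Wwtr1 and 26.5 CPM for Tspan7. Of these barcodes 130 met the C1q minimum, and endocrine markers made up 10181 CPM, against 2920 CPM in macrophages. One barcode held 16 of the 21 Dlc1 UMIs and another 6 of the 10 Wwtr1 UMIs. Without its richest barcode, Dlc1 was at 11.1 CPM, Wwtr1 at 8.91 CPM, Npnt at 15.6 CPM and Fat3 at 55.5 CPM.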

How the results depend on the processing

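Every member kept its direction between CD9-low and CD9-high macrophages under all 12 alternatives that gave its ratio, but the sizes varied. Ranges were 8.82 to 91.4 for Frmpd4, 3.94 to 41.8 for Dlc1, 4.84 to 13.4 for Fat3, 3.06 to 14.4 for Tspan7 and 4.76 to 15.8 for Ppp1r9a, and between 3.07 and 16.4 for the other 5. The median ratio of the members was 7.88, but 13.2 with the lowest and highest 20% of macrophages and 5.05 with the lower and upper 50%. The share of CD9-low macrophages with 2 or more members (37.5%) was 44.1% and 29.2% under the same settings, 64.7% with no thinning and 53.1% when thinned to 10000 RNA UMIs. The count of members higher in macrophages than in other cells was 5 (4 to 8 over the alternatives), and 8 without endothelial-like and endocrine-like cells, which was chosen after seeing the data. All genes, not limited to those counted in macrophages, gave 15.5% and 14.6% in those 2 comparisons. Counts for CD206 were 7 to 9 higher and 0 lower. Median odds ratios were 3.19 to 3.83 in macrophages and 1.58 to 2.20 within CD9-low macrophages. The CD9 count was 9 or 10, and 9 where 1 member fell under 100 UMIs. Depth limits the members with few UMIs, such as Wwtr1 with 13 in CD9-high macrophages. No paired analysis was possible because the series holds 1 sample of cells.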
